A study of Mus musculus with 15 samples.

Results

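The genes described here are Npsr1, Necab1, Tifa, Pik3ap1, Tec, Creb3l1, Pxdn, Nphs1 and Fam124a, 9 of the 26628 genes in the deposited table. They were chosen from these same data, as signaling genes whose expression differed between mouse lines in the cerebellum and differed little in the striatum, so the line differences printed below describe the choice and carry no test. The study compared a line of Hsd:ICR mice bred for high voluntary wheel running (Hi) with a control line (Co) in the whole cerebellum (Ce) and the whole striatum (St), which gave the groups CeCo (n = 4), CeHi (n = 4), StCo (n = 4) and StHi (n = 3). All animals were male and 6 weeks old according to the labels, and Co and Hi mice alike had a running wheel in the cage before collection on day 7. Each group stands for 1 selected line or 1 control line, so a difference brought about by selection and one that arose by drift between those lines cannot be told apart. The study reports that mice of the selected line ran more and faster on the wheels before collection. An effect of running itself therefore cannot be told apart from a genetic one either, a limit that the study states. The direction of every line difference follows the group names in the sample labels. The study's list of genes whose line difference depended on region includes Npsr1, Necab1, Tifa, Fam124a and Creb3l1. All of these have the opposite sign there in both regions, at sizes close to those printed below. No gene in the deposited table checks the names independently. Which line was higher is therefore in doubt throughout, whereas the sizes of the differences do not depend on it.

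The products of these genes differ in function, and that of Fam124a is not described here. Npsr1 encodes the receptor of neuropeptide S, a G protein-coupled receptor known for its part in arousal, locomotion and anxiety-related behavior, and Necab1 encodes a neuronal calcium-binding protein with an EF-hand. Tifa encodes an adapter that binds TRAF proteins and passes signals from the kinase ALPK1 to NF-kB, Pik3ap1 (BCAP) an adapter that brings phosphoinositide 3-kinase to immune receptors, and Tec a non-receptor tyrosine kinase. Creb3l1 (OASIS) is a transcription factor held in the endoplasmic reticulum membrane until proteases release it, and Pxdn (peroxidasin) is a secreted enzyme that crosslinks collagen IV of basement membranes. Nphs1 encodes nephrin, an adhesion protein of the immunoglobulin family best known from the kidney filter.

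All 9 are protein-coding genes on 9 different chromosomes. In the GRCm38 annotation Npsr1 lies on the plus strand of chr9:24097996-24316398, Necab1 on the minus strand of chr4:14952245-15149794, Tifa on the plus strand of chr3:127789805-127832164, and Pik3ap1 on the minus strand of chr19:41272377-41385102. Tec lies on the minus strand of chr5:72755716-72868483, Creb3l1 on the minus strand of chr2:91982328-92024502, Pxdn on the plus strand of chr12:29937608-30017658, Nphs1 on the plus strand of chr7:30458315-30487223, and Fam124a on the plus strand of chr14:62555737-62608486. Nphs1 overlaps the antisense gene Nphs1os and the pseudogene Rps12-ps4, and 9.40% of the 50-base windows of its exons also occur in another gene; reads from such stretches cannot be assigned with certainty. That share was 6.96% for Necab1, 1.88% for Tifa, 1.20% for Npsr1, 0.498% for Fam124a and 0 for the other genes.

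Promoter sequences from RefSeq (GRCm38.p6) were at hand for 7 of the 9 genes, the exceptions being Creb3l1 and Necab1, and 250 bases before each start were searched on both strands. The motifs were the full cyclic AMP response element, its core TGACG, the E-box CACGTG, the CCAAT box (its 5 letters), the TATA box TATAAA and an NF-kB motif; a full response element also holds the core. The stretches below are shown because Npsr1 had the largest line difference in cerebellum, Tifa has a neighbour, Neurog2, that differed by a like amount, and Pik3ap1 is the only other gene with an E-box. They run 5′ to 3′ on the strand of the gene and end at the base before the start; capitals mark the motif matches on either strand.
Npsr1, chr9:24097768-24098017, plus strand: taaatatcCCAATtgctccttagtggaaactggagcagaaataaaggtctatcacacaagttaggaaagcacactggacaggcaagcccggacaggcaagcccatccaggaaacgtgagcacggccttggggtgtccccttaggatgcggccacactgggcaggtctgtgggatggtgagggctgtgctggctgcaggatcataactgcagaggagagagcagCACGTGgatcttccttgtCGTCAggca
Tifa, the downstream start, chr3:127790407-127790656, plus strand: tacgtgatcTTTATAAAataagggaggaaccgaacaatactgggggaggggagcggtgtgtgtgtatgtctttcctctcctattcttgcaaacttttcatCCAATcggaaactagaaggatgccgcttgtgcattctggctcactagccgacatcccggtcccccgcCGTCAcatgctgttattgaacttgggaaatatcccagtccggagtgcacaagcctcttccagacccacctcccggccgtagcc
Pik3ap1, chr19:41385103-41385352, minus strand: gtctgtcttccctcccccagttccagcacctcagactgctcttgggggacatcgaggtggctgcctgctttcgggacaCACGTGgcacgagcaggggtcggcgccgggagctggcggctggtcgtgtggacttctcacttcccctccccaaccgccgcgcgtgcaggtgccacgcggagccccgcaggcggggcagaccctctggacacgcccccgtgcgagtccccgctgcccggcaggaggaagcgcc
The Npsr1 stretch held CCAAT, an E-box and the core of the response element, and the downstream Tifa stretch held overlapping TATA box matches, a CCAAT box and the core. The Pxdn promoter held CCAAT, and the promoters of Fam124a, Nphs1, Tec and the upstream start of Tifa held no match. Among all 32851 promoters in the table the core was found in 17.8%, the E-box in 6.02%, CCAAT in 33.8% and the TATA box in 12.4%. The full response element and the NF-kB motif, found in 1.55% and 1.41% of all promoters, were in none of the 8 stretches of these genes. The GC content was 54.8% for Npsr1, 52% for the downstream Tifa start and 71.2% for Pik3ap1, against a median of 52.4%.

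Values are normalized counts, that is, fragments per gene divided by a factor per library, and are not corrected for gene length. The libraries held 32909386 to 47485536 fragments, as recovered from the steps between low values, and 1 fragment was worth 0.841 to 1.30 normalized counts. The labelled regions were checked with markers. The 6 granule cell markers summed to 216771 to 266218 normalized counts in cerebellum and 4679 to 6494 in striatum, and the 9 medium spiny neuron markers to 14466 to 16602 in cerebellum and 211995 to 292929 in striatum. In bulk tissue fewer cells of a type and less RNA per cell cannot be told apart. CeHi replicate 3 stood apart: the median of the 9 striatal markers was 2.12% of the mean striatal level there and 0.603% to 0.745% in the other cerebellum libraries. Choroid plexus markers varied strongly among the cerebellum libraries of both lines, and their levels are given with those of Tec and Nphs1.

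As labelled, 6 of the 9 genes were higher in CeCo (Npsr1, Necab1, Tifa, Fam124a, Pik3ap1 and Nphs1) and 3 were higher in CeHi (Creb3l1, Pxdn and Tec); with the line names exchanged this split would turn over. The median size of the CeCo-CeHi difference over the 9 genes was 1.35 on the log2(normalized count + 1) scale, from 0.99 for Nphs1 to 6.11 for Npsr1, against 0.0970 over all 15213 genes tested. The median size of the StCo-StHi difference was 0.19, with a largest value of 0.55, against 0.0845 over all genes. By their choice all 9 were called in CeCo-CeHi (FDR-adjusted P-value under 0.05), where 5.94% of all genes did, and none in StCo-StHi, where 2.66% did; 7 were called for the line-by-region interaction, where 0.532% of all genes did, and nothing is read from these counts. The rule names no threshold: 70 of the 15213 genes had a cerebellar difference at least as large as that of Nphs1 with a striatal one no larger than that of Npsr1. CeCo and CeHi samples did not overlap for any of the 9 genes, against 13.3% of all genes without overlap, and StCo and StHi samples did not overlap for Pxdn, Nphs1 and Npsr1, against 13.1% of all genes.

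**Figure D1:**
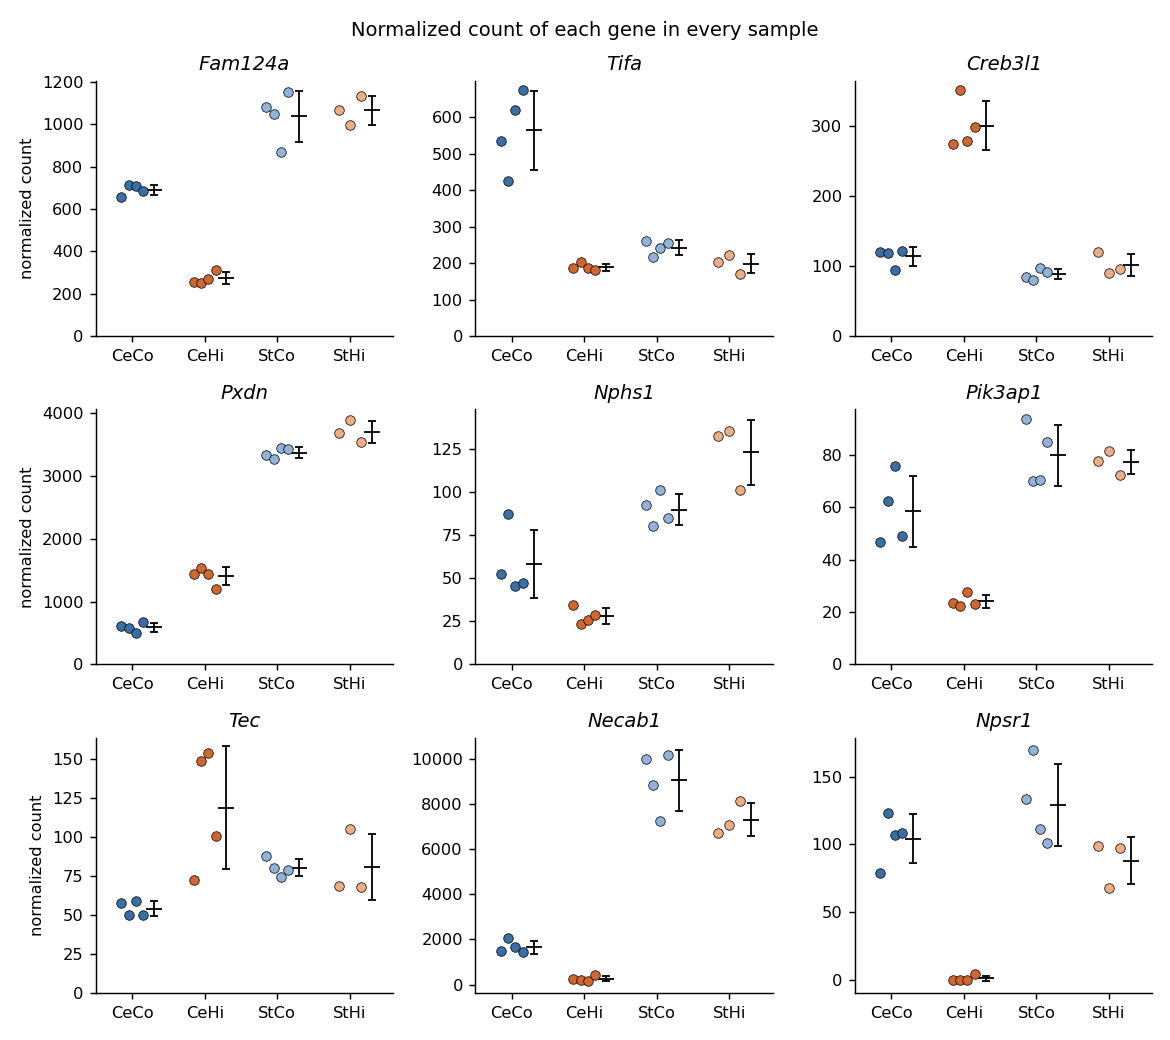
Normalized counts (vertical axes, linear from 0) of the 9 genes in CeCo, CeHi, StCo and StHi; each point is a sample, and the bar beside each group is its mean ± SD (n = 4, 4, 4 and 3). CeCo and CeHi do not overlap in any panel, and Npsr1 is at 0 in 3 of the 4 CeHi samples.

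**Figure D2:**
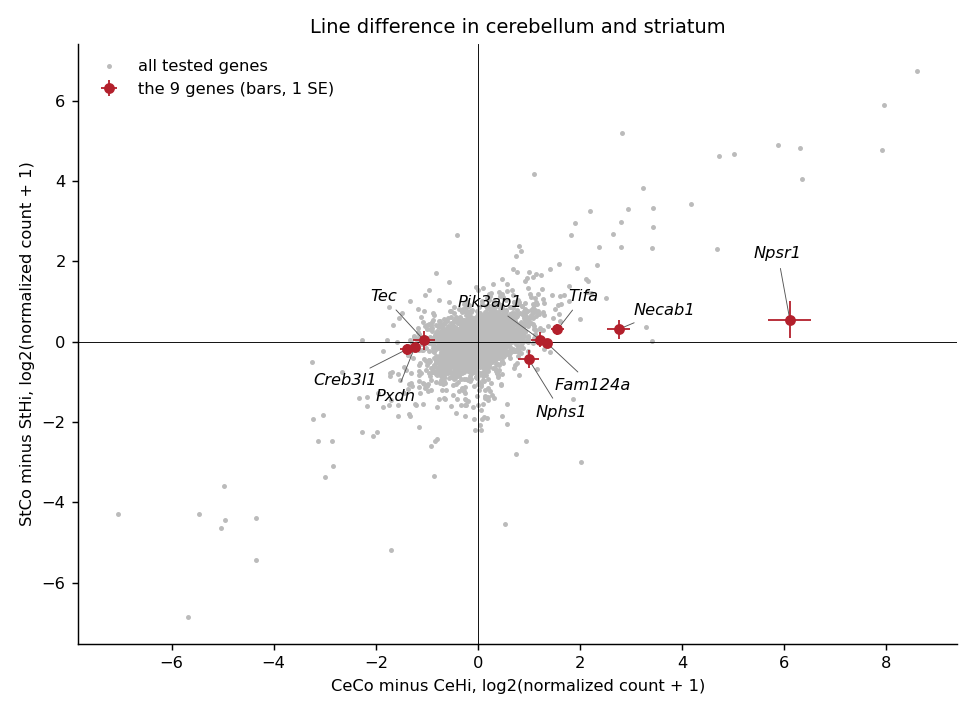
The CeCo-CeHi difference (horizontal axis) against the StCo-StHi difference (vertical axis), both on the log2(normalized count + 1) scale, for all 15213 tested genes in grey and the 9 genes in red with 1 SE. The 9 genes lie 0.99 or more from 0 on the horizontal axis and within 0.55 of it on the vertical one, which is how they were chosen.

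Npsr1 was close to absent from the cerebellum samples labelled Hi, subject to the doubt about direction given above. It was at 79.2, 123, 107 and 109 normalized counts in the CeCo samples and at 0, 0, 0 and 4.23 in the CeHi samples, the last from 4 fragments in replicate 3. A count of 0 allows up to 3 fragments in a library. In striatum it was at 133, 170.1, 111 and 101 in StCo and at 98.6, 68.0 and 97.4 in StHi. CeCo thus sat among the striatal samples, CeHi far below all others, and the lowest StCo sample lay just above the highest StHi sample. Summed over libraries, 470 fragments in CeCo stood against 4 in CeHi (exact Poisson interval 1.09 to 10.2), a ratio of 109 after division by the fragment totals, with a 95% interval of 42.4 to 403 that covers counting error only. The fitted CeCo-CeHi difference, 6.11 (SE 0.42), depends on the pseudocount and was 8.65 with 0.1 and 4.22 with 5 in place of 1. The StCo-StHi difference was 0.55 (SE 0.45).

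The CeHi library with Npsr1 fragments is the one with more RNA of striatal markers, and Npsr1 there was at 3.79% of the mean striatal level, beside 2.12% for the median striatal marker. The part of that RNA in the Npsr1 value was not tested. The ligand gene Nps did not exceed 2.11 normalized counts in any sample and was not tested.

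Necab1 was the most abundant of the 9 genes per kilobase of exon in striatum, at 1729 normalized counts per kilobase in StCo and 1394 in StHi. In CeCo it was at 1485, 2068, 1664 and 1436 normalized counts and in CeHi at 247, 187, 183 and 415. The StCo samples had 9978, 8846, 7229.8 and 10165, and the StHi samples 6726, 7076 and 8108. Both striatal groups were above every cerebellar sample and overlapped each other, while the highest CeHi sample was well below the lowest CeCo sample. The CeCo mean was 6.44 times the CeHi mean, a difference of 2.76 (SE 0.22) on the log2 scale, and StCo-StHi was 0.31 (SE 0.24). The highest CeHi value was again that of replicate 3, at 5.0% of the mean striatal level against 2.21% to 2.98% in the other CeHi samples; without this replicate the difference was 3.01.

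The adapter gene Tifa was at 535, 425, 620.3 and 674 normalized counts in CeCo and at 188, 203, 186 and 179.7 in CeHi. In striatum it was at 260.4, 216, 240.5 and 254 in StCo and at 202, 221 and 171 in StHi. CeCo stood above all other samples, and CeHi overlapped StHi, which in turn overlapped StCo. The CeCo mean was 2.98 times the CeHi mean (1.56, SE 0.13, on the log2 scale), and StCo-StHi was 0.30 (SE 0.14). Among the Co samples replicate 1 was the lowest in both regions.

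Per kilobase of exon Nphs1 and Pik3ap1 were the lowest of the 9 genes in CeCo, at 8.76 and 10.5 normalized counts per kilobase. Pik3ap1 was at 46.6, 62.4, 75.9 and 49.0 normalized counts in CeCo and at 23.5, 22.2, 27.8 and 23.2 in CeHi. StCo had 93.8, 70.2, 70.4 and 85.0, and StHi 77.8, 81.6 and 72.4. The CeHi samples were the lowest, and the 2 striatal groups overlapped each other and the top of CeCo. The CeCo mean was 2.42 times the CeHi mean (1.22, SE 0.18), and StCo-StHi was 0.04 (SE 0.19).

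Tec went the other way. It was at 57.8, 49.9, 58.9 and 49.9 normalized counts in CeCo and at 72.3, 149, 154 and 100.4 in CeHi. StCo had 87.6, 80.1, 74.6 and 78.6, and StHi 68.7, 105 and 67.7. CeCo was below every other sample, and CeHi had the widest spread and overlapped both striatal groups. The CeHi mean was 2.2 times the CeCo mean (-1.05, SE 0.21, for CeCo-CeHi), and StCo-StHi was 0.03 (SE 0.23).

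The transcription factor gene Creb3l1 was at 120.2, 119, 93.9 and 121 normalized counts in CeCo and at 274, 350.2, 278 and 298 in CeHi. It was at 83.9, 80.1, 96.6 and 91.4 in StCo and at 119, 90.3 and 95 in StHi. CeHi was above all other samples, whereas CeCo overlapped StHi and the top of StCo. The CeHi mean was 2.65 times the CeCo mean (-1.39, SE 0.13, for CeCo-CeHi), and StCo-StHi was -0.19 (SE 0.14).

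Pxdn had no overlap between any of the 4 groups. It was at 611, 588, 499 and 677 normalized counts in CeCo and at 1433, 1533, 1438 and 1201 in CeHi. It was at 3328, 3267, 3449 and 3428 in StCo and at 3679.9, 3886 and 3538 in StHi. The order was CeCo, CeHi, StCo and StHi, with Hi above Co in each region. The CeHi mean was 2.36 times the CeCo mean (-1.23, SE 0.08, for CeCo-CeHi), and the StHi mean 1.10 times the StCo mean (-0.13, SE 0.09).

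Nphs1 was at 52.2, 87.4, 45.2 and 47.2 normalized counts in CeCo and at 34.5, 23.2, 25.9 and 28.5 in CeHi. It was at 92.6, 80.1, 101 and 85.0 in StCo and at 132, 135 and 101 in StHi, with the lowest StHi sample at the level of the highest StCo sample. CeHi was the lowest group, and the highest CeCo sample reached into StCo. The CeCo mean was 2.07 times the CeHi mean (0.99, SE 0.20), and StCo-StHi had the opposite sign, -0.44 (SE 0.22).

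Fam124a was at 659, 713, 708 and 683 normalized counts in CeCo and at 254, 251, 270.5 and 313 in CeHi. It was at 1082, 1048, 867 and 1153 in StCo and at 1066, 999 and 1133 in StHi. The striatal groups overlapped each other and lay above CeCo, which lay above CeHi. The CeCo mean was 2.54 times the CeHi mean (1.35, SE 0.09), and StCo-StHi was -0.04 (SE 0.10).

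The difference between regions, averaged over the lines, was tested with limma. It is not a contrast that chose the genes, but a line change in cerebellum alone moves it, so it is not free of the choice. It passed for 8 of the 9 genes (88.9%), close to the 80.2% of all genes. Of these, 6 were higher in striatum (39.6% of all genes were), with log2 differences between striatum and cerebellum coded as cerebellum minus striatum of -3.68 for Necab1 (SE 0.16, adjusted P-value 7.89e-11), -3.08 for Npsr1 (SE 0.31, 9.22e-08), -1.96 for Pxdn (SE 0.06, 7.23e-15), -1.38 for Nphs1 (SE 0.15, 1.30e-07), -1.28 for Fam124a (SE 0.07, 6.38e-12) and -1.05 for Pik3ap1 (SE 0.13, 8.41e-07). Creb3l1 (0.95, SE 0.09, adjusted P-value 5.35e-08) and Tifa (0.56, SE 0.09, 3.53e-05) were higher in cerebellum, as were 40.6% of all genes. Tec did not pass (-0.02, SE 0.16, adjusted P-value 0.891). This average hides the line: cerebellum minus striatum was -0.30 in Co and -5.86 in Hi for Npsr1, and -0.57 and 0.52 for Tec. CeHi was at 1.20% of StHi for Npsr1 and at 3.54% for Necab1, while CeCo was at 80.9% and 18.4% of StCo. For Tifa CeCo was at 232% of StCo and CeHi at 95.3% of StHi.

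The other genes of these pathways were taken from fixed lists of known partners, chosen for function. Of 79 tested partners 6 differed in CeCo-CeHi (7.59%, near the 5.94% of all genes), 4 higher in CeCo and 2 higher in CeHi, where 2.99% and 2.94% of all genes were called in these directions. Without CeCo replicate 3 the count was 2. The median CeCo-CeHi difference of the partners was 0.06, against 0.00 over all genes. In StCo-StHi 1 partner was called (1.27%, beside 2.66% of all genes), and 0 without StCo replicate 1, StHi replicate 1 or StHi replicate 2. None was called for the interaction with limma, and 14 had an unadjusted P-value under 0.05. The share of all genes at that unadjusted threshold is not given here, so nothing is read from the 14. For the interaction edgeR called 0 partners and DESeq2 3, where they called 100 and 277 of 15212 genes.

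In the list from TIFA to NF-kB 4 of 15 genes were called, beside 5.94% of all genes; the list was not tested against the others. Without CeCo replicate 3 only Traf3 and Tab1 were called among all partners, with adjusted P-values of 0.0260 and 0.0164. Tab1, a subunit of the TAK1 kinase complex, was at 1502 ± 94.5 normalized counts in CeCo and 1204 ± 42.9 in CeHi (SD, n = 4 each; difference 0.32, SE 0.06, adjusted P-value 0.0036), and Chuk, the kinase IKK-alpha, at 2476 ± 88.2 and 2111 ± 204 (0.24, SE 0.07, 0.0404). Higher in CeHi were Traf3 (3203 ± 89.3 and 3999 ± 454, difference -0.31, SE 0.07, adjusted P-value 0.0133) and Traf6, the ligase that TIFA binds (1146 ± 39.0 and 1375 ± 129, difference -0.25, SE 0.06, 0.0281). Of 29 alternative analyses of CeCo-CeHi, Tab1 and Traf3 were called in 29, Traf6 in 23 and Chuk in 13. The highest adjusted P-value of Chuk was 0.114. Traf6 was higher in StHi too, at 1201 ± 17.1 (n = 3) against 972 ± 56.6 in StCo (n = 4, difference -0.30, SE 0.07, adjusted P-value 0.0261). This striatal call held in 22 of 29 alternative analyses. It was lost with the replicate number as a block (0.0533) and with the choroid plexus level as a term (0.0571). It was also lost without StCo replicate 1 (0.0735) or 2 (0.0583). Leaving out any StHi sample removed it as well (0.0667, 0.0736 and 0.0969 without replicates 0, 1 and 2). The CeCo-CeHi differences of these partners were 0.32 or less in size, and that of Tifa was 1.56.

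In the list of PI3K adapter and TEC kinase partners 1 of 16 genes was called (6.25%, near the 5.94% of all genes). It was the Toll-like receptor adapter gene Myd88 (202 ± 17.1 in CeCo and 140.1 ± 23.4 in CeHi, difference 0.54, SE 0.14, adjusted P-value 0.0300). In the nephrin list 1 of 11 was called (9.09%). It was Kirrel3, a relative of nephrin at cell contacts (4042 ± 167 and 3494 ± 220.3, difference 0.22, SE 0.05, adjusted P-value 0.0204). None was called with limma in CeCo-CeHi among 11 genes of CREB3L1 processing and endoplasmic reticulum stress, 12 basement membrane genes, 9 neuronal calcium-binding genes and 5 of the neuropeptide S receptor pathway. Their medians were 0.10, 0.15, -0.04 and -0.06. For the 12 basement membrane genes, which include the collagen IV chains that Pxdn crosslinks, the smallest adjusted P-value was 0.0573.

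Among the paralogs, 16 of the 17 listed genes were in the table and 11 were tested. In CeCo-CeHi 2 were called (18.2%, beside 5.94% of all genes), both relatives of Necab1. Necab2 was at 129, 111, 108 and 155 normalized counts in CeCo and at 259, 199, 257 and 456.5 in CeHi, so that it was higher in CeHi in all samples (-1.15, SE 0.20, adjusted P-value 0.0032). Its sign was opposite to that of Necab1, and its highest value was that of replicate 3, as for Necab1; without this replicate the difference was -0.92. Necab3 was higher in CeCo (1642 ± 213 against 1136 ± 137, difference 0.54, SE 0.15, adjusted P-value 0.0444), with adjusted P-values of 0.00521 to 0.124 over the alternative analyses. In St, Tifab, the relative of Tifa, was at 90.1, 101, 109 and 85.0 in StCo and at 205, 179.7 and 135 in StHi (-0.82, SE 0.17, adjusted P-value 0.0110); without StHi replicate 0 or 1 the adjusted P-value was 0.0612 and 0.0597. In cerebellum Tifab was at 30.7 ± 3.61 in CeCo and 39.8 ± 1.08 in CeHi (-0.37, SE 0.16, adjusted P-value 0.198). None of the 11 was called for the interaction with limma, edgeR or DESeq2. With limma 1 had an unadjusted P-value under 0.05, from which nothing is read.

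The other relatives named here were not called in either region. Creb3 differed by -0.01 (SE 0.08) and Creb3l2 by 0.13 (SE 0.11) in CeCo-CeHi, beside -1.39 for Creb3l1. The kinases Btk and Bmx differed by -0.05 (SE 0.21) and 0.22 (SE 0.20), beside -1.05 for Tec. Bank1, an adapter related to Pik3ap1, differed by 0.05 (SE 0.40). The receptor genes Avpr1a and Oxtr differed by 0.63 (SE 0.32) and -0.24 (SE 0.18), beside 6.11 for Npsr1. Fam124b, Creb3l3, Creb3l4, Txk and Avpr1b were too low to be tested.

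**Figure D3:**
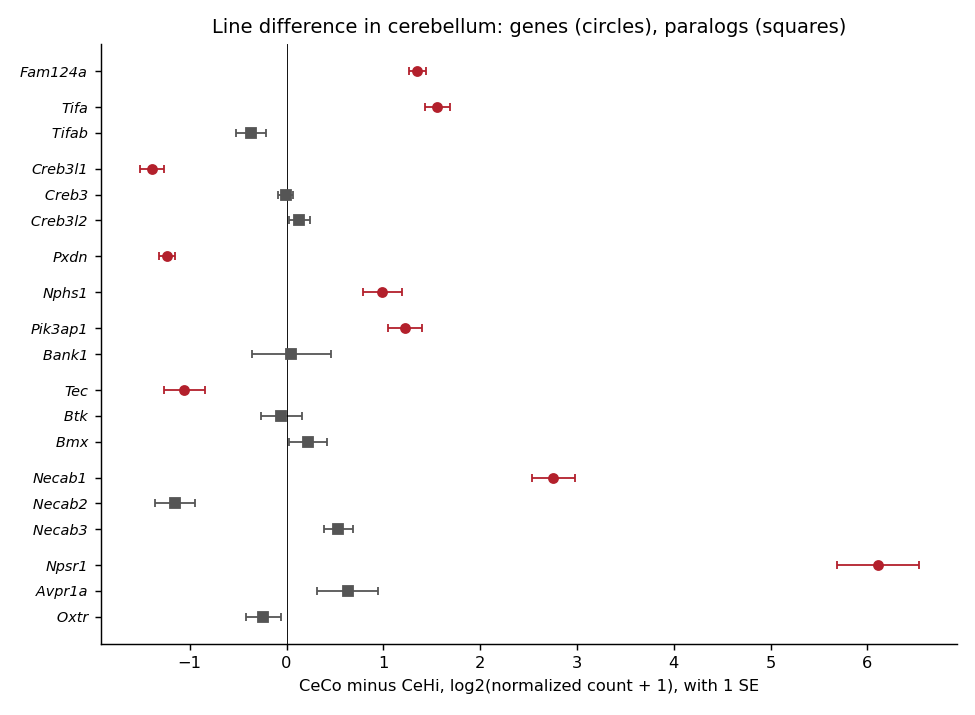
CeCo-CeHi difference on the log2(normalized count + 1) scale (horizontal axis) with 1 SE, for the 9 genes (red circles) and 10 of their tested paralogs (grey squares, listed under their relative). Necab2 lies at -1.15, on the other side of 0 from Necab1 at 2.76.

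Genes within 500 kb of the 9 genes were examined in the same fit. Of 95 tested neighbours 9 were called in CeCo-CeHi (9.47%, beside 5.94% of all genes), 3 higher in CeCo and 6 higher in CeHi. In StCo-StHi 2 were called (2.11%, beside 2.66% of all genes). None was called for the interaction with limma, and 11 had an unadjusted P-value under 0.05. The share of all genes at that unadjusted threshold is not given here, so nothing is read from the 11. For the interaction edgeR called 0 neighbours and DESeq2 1, where they called 100 and 277 of 15212 genes. The median CeCo-CeHi difference of the neighbours was 0.04.

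Neurog2, a proneural transcription factor gene 154 kb from Tifa, had the largest difference. It was at 84.8, 69.5, 76.8 and 148 normalized counts in CeCo and at 32.8, 25.3, 27.8 and 32.8 in CeHi (1.59, SE 0.29, adjusted P-value 0.00226), and at 18.8 ± 3.30 in StCo (n = 4) and 12.1 ± 6.50 in StHi (n = 3). Alpk1, the kinase upstream of TIFA and 9.28 kb from its gene, was singled out after its values were seen: it was at 218, 86.5, 282 and 302 in CeCo and at 98.4, 60.1, 76.9 and 62.4 in CeHi (1.45, SE 0.40, adjusted P-value 0.0504, so not called; 0.000236 to 0.130 over 29 alternative analyses, 6 of them under 0.05). In striatum it was at 207, 85.1, 240.5 and 272 in StCo and at 71.3, 108 and 71.2 in StHi. Replicate 1 of the Co line was low for Alpk1 in both regions, near the Hi samples, while the other Co samples lay at 207 to 302. It was the lowest Co sample of its region for Tifa and Neurog2 as well. Ap1ar, which overlaps Tifa, differed by 0.00 (SE 0.07).

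The other called neighbours had differences under 0.62 in size. Dpy19l1, the only tested neighbour of Npsr1, was at 3613 ± 197 in CeCo and 2968 ± 166 in CeHi (0.29, SE 0.07, adjusted P-value 0.0283), and at 5977 ± 491 in StCo and 4041 ± 465 in StHi (0.57, SE 0.08, adjusted P-value 0.000393), so the lines differed there in both regions. Near Nphs1, Haus5 was higher in CeCo (0.51, SE 0.12, adjusted P-value 0.0171) and Hspb6 (-0.62, SE 0.12, 0.00423) and Sbsn (-0.61, SE 0.16, 0.0371) in CeHi, and Alkbh6 was higher in StHi (-0.36, SE 0.09, 0.0400). Kirrel2, which lies 0.625 kb from Nphs1 and encodes another nephrin relative, was at 231 ± 88.1 in CeCo and 228 ± 60.6 in CeHi (-0.01, SE 0.25). In striatum Kirrel2 was at 405 ± 64.1 in StCo and 756 ± 26.8 in StHi (-0.90, SE 0.27, adjusted P-value 0.0984, so not called). Near Creb3l1, Lrp4 (-0.31, SE 0.09, adjusted P-value 0.0484) and Slc35c1 (-0.29, SE 0.06, 0.00763) were higher in CeHi, as was Creb3l1 itself. Frat1 near Pik3ap1 (-0.40, SE 0.08, adjusted P-value 0.00679) and Ociad2 near Tec (-0.46, SE 0.11, 0.0147) were also higher in CeHi. No neighbour of Fam124a, Pxdn or Necab1 was called among the 4, 3 and 3 tested.

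**Figure D4:**
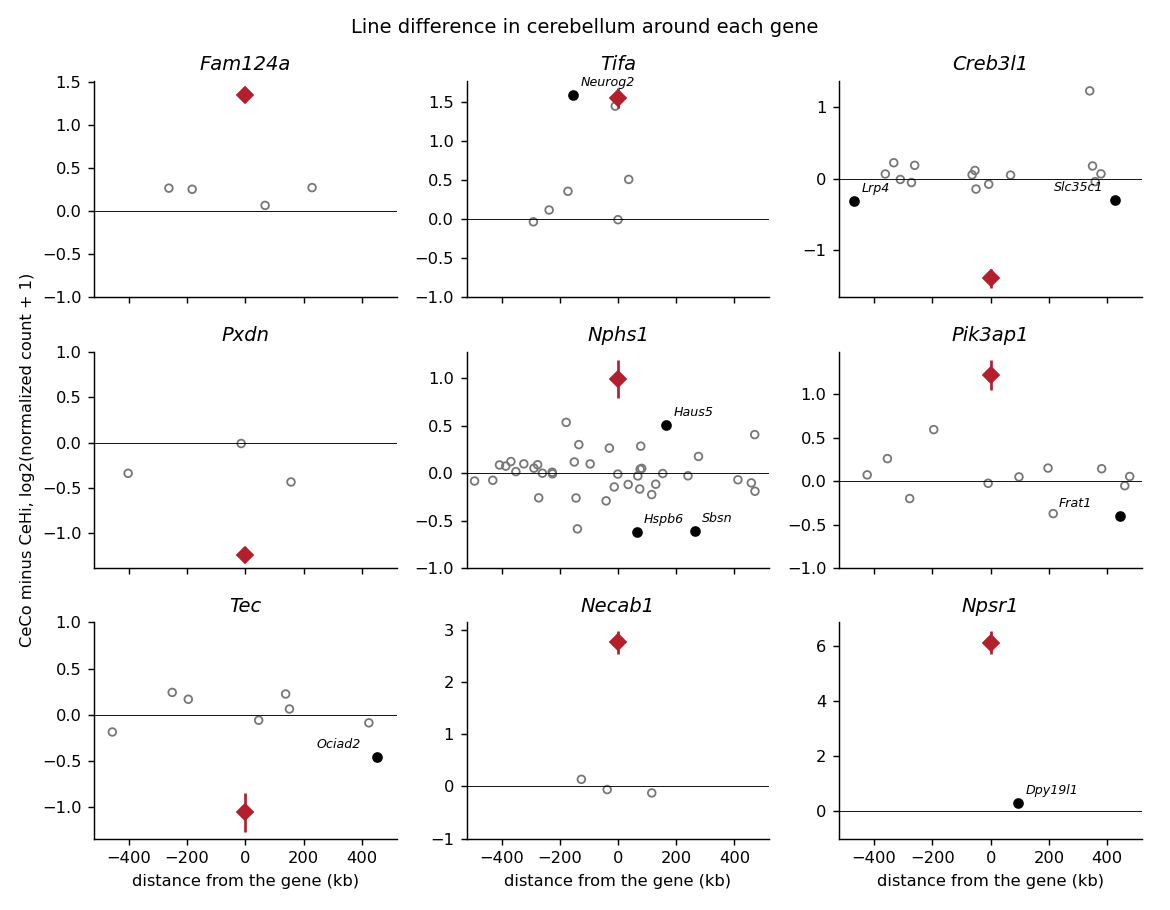
CeCo-CeHi difference on the log2(normalized count + 1) scale (vertical axes) against the distance in kb (horizontal axes) for the tested genes within 500 kb of each of the 9 genes, which stand as red diamonds with 1 SE at distance 0. Filled circles are neighbours called by limma and open circles are the others; only near Tifa does a called neighbour, Neurog2 at 1.59, match the size of the gene itself.

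Of 57 tested markers from 10 lists of cell type markers none was called with limma in CeCo-CeHi, and only the granule cell gene Cbln1 was called in StCo-StHi. The 7 markers of brainstem monoamine and parabrachial neurons were too low to be tested. The summed level of the 5 endothelial markers did not overlap between the cerebellar groups, at 5184 to 5587 in CeCo and 5687 to 6090 in CeHi, although 0 of the 5 was called. The 5 choroid plexus markers ranged from 1313 to 115488 in CeCo and from 946 to 111775 in CeHi, and so varied within each line far more than between them. Tec followed these levels within CeHi: the choroid plexus sum was 946, 111775, 87012 and 12237 in replicates 0 to 3, where Tec was at 72.3, 149, 154 and 100.4. In CeCo, with sums of 78321, 1313, 115488 and 35753, Tec stayed between 49.9 and 58.9. Nphs1 went against them: its highest value in each line, 87.4 in CeCo replicate 1 and 34.5 in CeHi replicate 0, was in the sample with the lowest sum. With the log2 choroid plexus sum as a term, added after these levels were seen, the CeCo-CeHi difference was -1.10 for Tec and 1.04 for Nphs1, beside -1.05 and 0.99 without it. This term has a common slope for all samples of both regions, so it cannot take out a dependence seen in CeHi alone. In the samples with the lowest sum of each line, Tec was at 72.3 in CeHi replicate 0 and at 49.9 in CeCo replicate 1. The 5 cortical and claustrum neuron markers overlapped in striatum (34414 to 51335 in StCo and 18165 to 38492 in StHi). Their median StCo-StHi difference was 0.71, and 0 of the 5 was called. Oligodendrocyte markers did not overlap in striatum (184858 to 269931 in StCo and 283034 to 322892 in StHi), and microglial markers overlapped in cerebellum (2777 to 3325 in CeCo and 2611 to 3471 in CeHi). The part of these cell types in the values of the 9 genes was not tested.

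**Figure D5:**
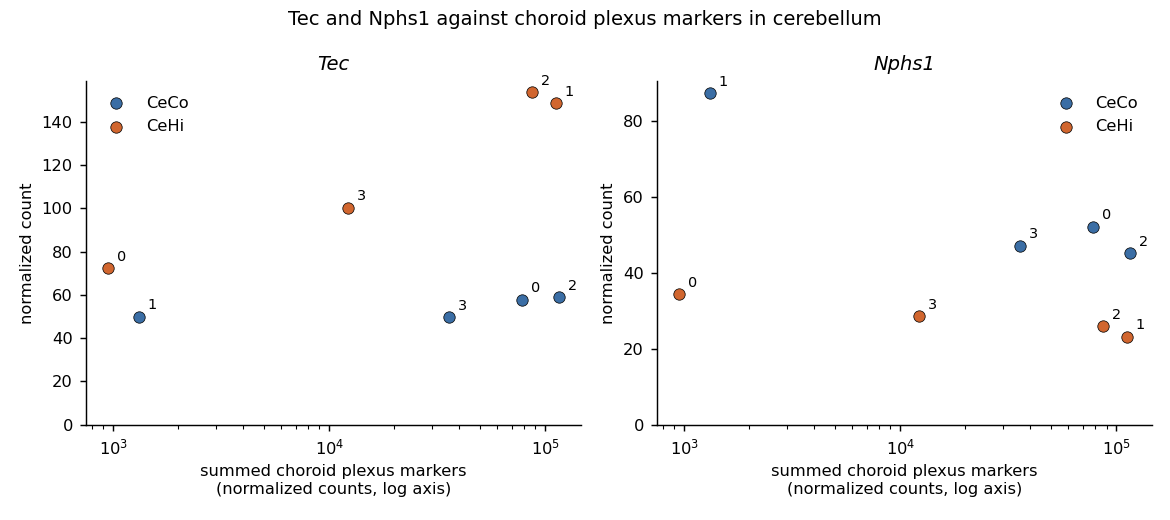
Normalized counts of Tec and Nphs1 (vertical axes, linear) against the summed normalized counts of 5 choroid plexus markers (horizontal axes, log scale) in the 8 cerebellum samples, marked by group and replicate number. Tec in CeHi goes from 72.3 in replicate 0 to 154 in replicate 2 while CeCo stays below 59 over the same range of marker levels.

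The genes varied unequally among replicates. The residual SD on the log2 scale was at the 52.0 percentile of all tested genes for Pxdn and the 52.8 percentile for Fam124a, and at the 90.2 and 98.4 percentiles for Necab1 and Npsr1. The deviations from the group means correlated over the 15 samples with Pearson's r = 0.79 between Necab1 and Npsr1, 0.75 between Fam124a and Necab1, and -0.66 between Pxdn and Necab1, as a description; these values share their libraries, CeHi replicate 3 among them.

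Genes with a like pattern were sought among all tested genes by Pearson's r of log2 values over the 15 samples, a measure that follows the group means for the most part. Npsr1 was most like Snhg11 and Abi3bp (0.95 each), and Necab1 like Camkk1 (0.98) and Ccdc48 (0.97). Tifa was most like Zdhhc18 (0.905) and Ccdc9 (0.895), Pik3ap1 like Wdr25 (0.94) and 5330437I02Rik (0.93), and Tec like Mlec (0.83) and Zfp937 (0.79), the lowest values of the 9. Creb3l1 was most like Lrp3 and Cldn25 (0.95 each), Pxdn like 1110051M20Rik and Cd276 (0.98 each), Nphs1 like Sun2 (0.96) and Accn2 (0.95), and Fam124a like Wdr25 and Ntsr2 (0.96 each). Wdr25 was thus named for both Fam124a and Pik3ap1, with means of 247 ± 14.5 (CeCo), 134 ± 11.5 (CeHi), 380.2 ± 26.1 (StCo) and 304 ± 17.4 (StHi). Ranked on deviations from the group means instead, the nearest genes were others for each of the 9, such as Cnih3 for Npsr1 (0.95) and Pcdha12 for Fam124a (0.95).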

How the data were processed

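RNA was sequenced from 15 samples of cerebellum and striatum. Per the submitters' processing notes, the authors aligned paired-end reads to GRCm38 with TopHat2 and made normalized counts with Cuffnorm 2.2.1; the deposited values are signal, fragments per gene divided by a library factor. They left out 1 StHi sample as an outlier. Steps between low values gave whole fragments for 99.3% to 99.5% of low values (tolerance 0.01).

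Genes at 1 CPM or more in at least 3 samples were kept (15213). Values were scaled by TMM (all libraries within 0.993 to 1.01 of their mean) and fitted as log2(value + 1) with limma 3.58.1 (R 4.3.3; trended, robust), 1 model over the 4 groups, with Benjamini-Hochberg adjustment over all genes (0.05). edgeR 4.0.16 and DESeq2 1.42.0 on the recovered fragments were alternatives, beside other pseudocounts, filters, scalings and weights, single regions, the replicate block and each sample left out. The model was also run on simulated counts with the same dispersion for every gene, and nothing is read from that run.

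The members, gene lists and tests were chosen with earlier results of these data known. Named were the 9 genes, their paralogs, Nps, and partners, markers and neighbours passing in a line contrast or the interaction. For each of the 9 genes the 2 most correlated genes were named too. Alpk1, Ap1ar, Kirrel2, Cnih3, Pcdha12 and the endothelial and cortical markers fall outside this rule and were named after their values were seen. Of the paralogs, 1 that was tested is counted but not reported here. Same-numbered cerebellum and striatum samples correlated at 0.171 to 0.278 in Co and -0.0751 to 0.0513 in Hi. Same-numbered Co and Hi samples of a region, which are different mice, correlated at -0.221 to 0.196. The labels do not say whether cerebellum and striatum samples came from the same mice, and these values do not settle it. The main model, with its region and interaction tests, took all samples as independent, and the replicate block was an alternative. Positions are from GENCODE on GRCm38.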

Additional observations from a re-analysis of the deposited data

Results flagged for a closer look

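Sample values were examined in 39 groups of 4 samples for 1 that lay far from the other samples of its group by Dixon's criterion, which chance meets in about 1 of 20 groups, and 3 did. Creb3l1 was at 93.9 in CeCo replicate 2, where the other CeCo samples had 119 to 121. Nphs1 was at 87.4 in CeCo replicate 1, against 45.2 to 52.2. Npsr1 was at 4.23 in CeHi replicate 3, from 4 fragments, against 0 in the other CeHi samples. With the others tied at 0 any value above 0 meets the criterion, so its chance rate does not hold there and nothing is read from this flag.

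Of the partners, paralogs and markers, Cbln1, a granule cell gene, had a line difference that differed between the regions by 0.80 on the log2 scale (limma adjusted P-value 0.0358). It was 0.28 (SE 0.11) for CeCo-CeHi and -0.51 (SE 0.12) for StCo-StHi, where Cbln1 was at 380.4 ± 70.3 in StCo (n = 4) and 538 ± 11.2 in StHi (n = 3).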

How the results depend on the processing

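The direction of every CeCo-CeHi difference of the 9 genes held under all alternatives, with a median size between 1.29 and 1.39, and the region effect passed for 8 of 9 in each. The Tec region difference changed sign: 0.23 with quantile normalization and -0.0933 to 0.0855 with 1 sample left out.

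Partners called in CeCo-CeHi (6) came to 11 with DESeq2 and 2 to 8 with 1 sample left out, the lowest without CeCo replicate 3. Partners called in StCo-StHi (1) came to 2 with quantile normalization and with each region alone, 3 with quality weights, 4 with DESeq2, 0 with the choroid plexus level as a term, and 0 to 2 with 1 sample left out (0 without StCo replicate 1, StHi replicate 1 or StHi replicate 2). Partners called for the interaction (0) came to 1 with quality weights, 3 with DESeq2 and 0 to 1 with 1 sample left out. Paralogs called in CeCo-CeHi (2) came to 1 with no filter, with a filter of 0.1 and without trended moderation, and to 1 to 2 with 1 sample left out; Necab3 was the call lost. Neighbours called in CeCo-CeHi (9) came to 17 with DESeq2, 17 of 174 within 1000 kb, and 6 to 10 with 1 sample left out. Neighbours called for the interaction (0) came to 1 with either other filter, quality weights, DESeq2 or 1000 kb, and 0 to 1 with 1 sample left out. The cause was not tested.

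With the replicate number as a block, 948 genes were called in CeCo-CeHi, 374 in StCo-StHi and 73 for the interaction, against 903, 405 and 81, and the partners called in StCo-StHi fell to 0; 6 of the 9 genes passed for the interaction. DESeq2 called 1390, 711 and 277 genes and edgeR 952, 421 and 100. Depth limits Npsr1 in CeHi, with 4 fragments in all.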
